A study of Homo sapiens with 15 samples.

Results

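The lysosome genes described here were 48 genes chosen by name for their known function: 34 acid hydrolases and their lipid-binding cofactors, 7 proteins of the lysosomal membrane, 5 components of the lysosomal proton pump, and the transcription factors TFEB and TFE3. They were chosen with earlier results of these data known, so their shares beside all clusters are a description and no test. Of the 48 genes, 45 were found among the 21448 transcript clusters of the array, of which 17709 carried 1 gene symbol, and each was measured by 1 cluster. GLB1, NEU1 and NPC2 were not analysed here. MG-63 cells, an osteoblast-like line from a human osteosarcoma, were grown in DMEM with 10% FCS on titanium coated with TMS-PEI, an amine-rich poly(ethyleneimine) layer bound through silane groups (Ti-TMS-PEI), or on uncoated titanium (Ti-Ref). RNA of the adherent cells was hybridised to Clariom S arrays after 4 h (Ti-TMS-PEI, n = 4; Ti-Ref, n = 4) and 24 h (Ti-TMS-PEI, n = 4; Ti-Ref, n = 3), and 1 Ti-Ref array had been excluded by the authors because labelling controls were out of range. The methods call the arrays both independent experiments and technical replicates, so the p-values measure the spread between these arrays only. Arrays carry the letters A to D of their labels. The cells are 1 tumour line. At 24 h the mean log2 values of the 8 osteoblast markers measured were 15.18 for COL1A1, 16.09 for COL1A2, 16.19 for SPARC, 5.87 for RUNX2, 6.12 for ALPL, 4.51 for SPP1, 3.92 for IBSP and 3.23 for SP7 on Ti-TMS-PEI. On Ti-Ref they were 15.07 for COL1A1, 15.93 for COL1A2, 16.03 for SPARC, 6.05 for RUNX2, 6.06 for ALPL, 4.33 for SPP1, 4.15 for IBSP and 3.31 for SP7. Signals of different probes are not comparable, so they do not rank these genes, and none of the 8 was called at either time.

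Lysosomes are acidic compartments in which hydrolases break down proteins, sugar chains, nucleic acids and lipids delivered by endocytosis, phagocytosis and autophagy. A proton pump, the V-ATPase, keeps the lumen acidic, and membrane proteins protect the wall and carry cholesterol, ions and breakdown products across it. TFEB and TFE3 are held in the cytoplasm when nutrients are plentiful and enter the nucleus on starvation or lysosomal stress, where they bind a DNA element around the letters CACGTG in front of many lysosomal genes.

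After 24 h on Ti-TMS-PEI, transcripts of the lysosome genes were mostly higher than on Ti-Ref, and none was called lower. A gene was called when its fold change was over 1.5 with p and adjusted p under 0.05 (limma, Benjamini-Hochberg over all 21448 clusters). Upregulated were 8 of 45 genes (17.8%), against 3.46% of all clusters called higher and 2.69% called lower: the proteases CTSD and TPP1, the glycosidase MANBA, the lipid-handling genes SMPD1, LIPA and PSAP, the cholesterol transporter NPC1, and the pump subunit ATP6V1A. A further 9 genes passed the adjusted p at a smaller fold, so that 17 were higher and 0 lower by the adjusted p alone, against 5.16% and 4.26% of all clusters. RNA of whole cultures was measured, so that more cells expressing a gene and more RNA of it per cell cannot be told apart.

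The median log2 fold change (Ti-TMS-PEI minus Ref) of the 45 genes at 24 h was 0.36, with a range of -0.10 to 0.996, beside a median of -0.0033 over all clusters. Array medians at 24 h averaged 0.061 higher on Ti-TMS-PEI than on Ti-Ref (log2). Centring each array on its median brought the median of the 45 genes to 0.30, with 12 past the adjusted p (share of all clusters not computed). The mean was higher on Ti-TMS-PEI for 43 of 45 genes, as it was for 49.4% of all clusters. In 29 of 45 genes (64.4%) all 4 Ti-TMS-PEI arrays lay above all 3 Ti-Ref arrays, whereas 11.8% of all clusters did so, and in 0 genes did they all lie below, against 11.6%. At an unadjusted p under 0.05, 29 were higher and 0 lower, against 12.5% and 11.8% of all clusters. The shares of all clusters were not matched for signal. At 24 h the mean log2 value of the 45 genes lay between 10.12 and 10.60 by array, against array medians of 6.705 to 6.79.

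The number of calls depended in part on single arrays, as it did over all clusters. Without Ti-Ref array A 5 genes were called, and 2.55% of all clusters were called higher, against 3.46% with all arrays. In that fit 6 genes passed the adjusted p alone, and the share of all clusters that did so was not computed. CTSD, TPP1, PSAP, NPC1 and ATP6V1A were called in each of the 7 fits that left out 1 array.

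**Figure D1:**
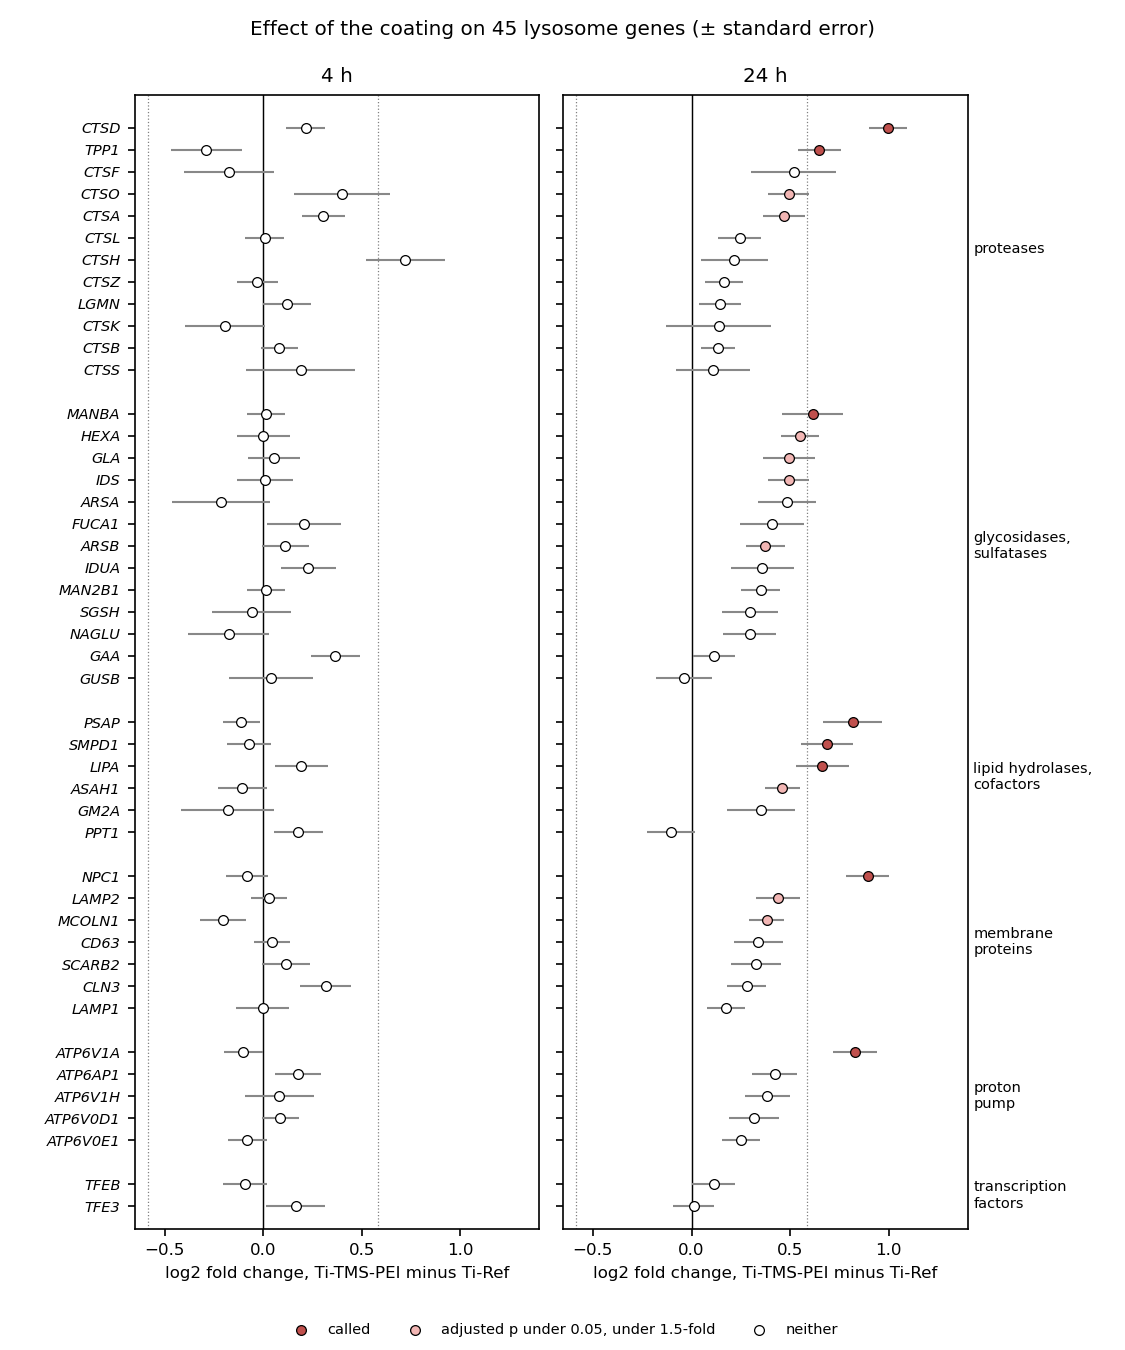
Log2 fold change (Ti-TMS-PEI minus Ti-Ref) of the 45 lysosome genes with its standard error, by role, at 4 h (left) and 24 h (right). Dark points are called genes, pale points passed the adjusted p at a smaller fold, and dotted lines mark a 1.5-fold change. The median was 0.03 at 4 h and 0.36 at 24 h.

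The mean log2 value of the 45 genes in each array was 10.59, 10.60, 10.49 and 10.54 on Ti-TMS-PEI, against 10.19, 10.12 and 10.21 on Ti-Ref, at 24 h. At 4 h the means were 9.26, 9.33, 9.30 and 9.30 on Ti-TMS-PEI, against 9.25, 9.24, 9.31 and 9.18 on Ti-Ref. The groups lay apart at 24 h and overlapped at 4 h. Array medians of the 2 times differed, and they were treated as normalized separately, so levels of 4 h and 24 h were not set against each other.

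**Figure D2:**
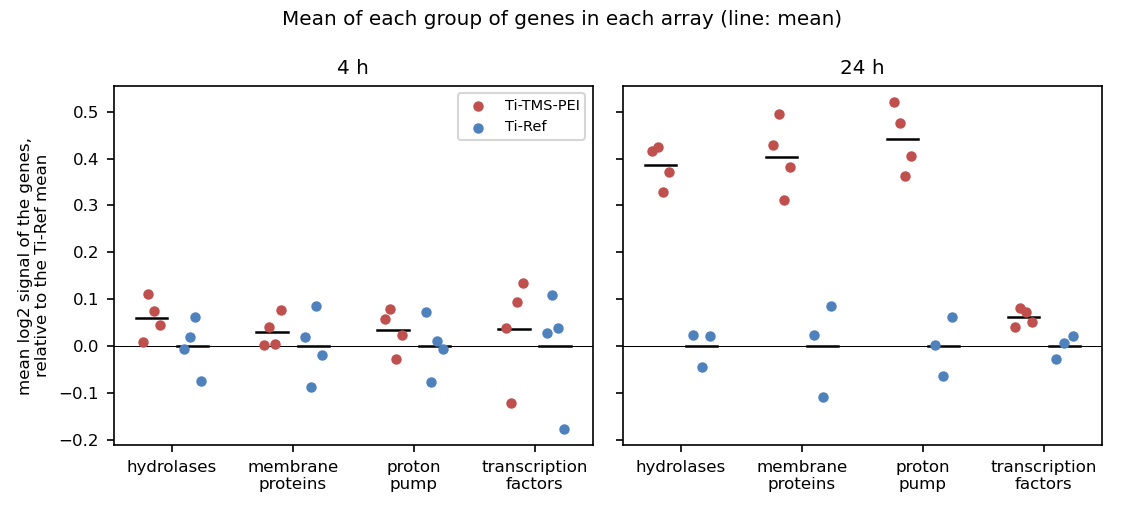
Mean log2 value of the genes of each role in each array (1 point per array, line at the group mean), with the Ti-Ref mean of that role and time set to 0, Ti-TMS-PEI left of Ti-Ref. At 24 h every Ti-TMS-PEI array lay above every Ti-Ref array for hydrolases, membrane proteins and the proton pump.

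Promoter sequences are shown because TFEB and TFE3 bind a known element. RefSeq promoters (GRCh38.p14, from 250 bases before to 50 after each gene's start) were found for 29 of 45 genes. The letters CACGTG, a palindrome and so the same on both strands, stood in the promoters of 10 of the 29 genes (34.5%), against 8.77% of 27305 genes with a RefSeq promoter (7.26% of 35116 promoters). The longer TCACGTGA, which holds CACGTG, stood in 6 genes (20.7%), against 1.18% of all genes (0.98% of promoters). The 29 genes had 43 promoters, and a gene counted when any of its promoters matched. The element is known from lysosomal genes, so these shares say nothing of the coating. The windows below are 66 bases long, 5′ to 3′, with each CACGTG in capitals. The first 4 belong to members that passed the adjusted p at 24 h.
CTSA, chr20:45891280-45891345, plus strand: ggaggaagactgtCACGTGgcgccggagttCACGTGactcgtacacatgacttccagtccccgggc
CTSD, chr11:1763939-1764004, minus strand: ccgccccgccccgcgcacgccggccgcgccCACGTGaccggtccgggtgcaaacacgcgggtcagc
ARSB, chr5:78986083-78986148, minus strand: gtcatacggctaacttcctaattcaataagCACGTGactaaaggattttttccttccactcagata
MCOLN1, chr19:7522553-7522618, plus strand: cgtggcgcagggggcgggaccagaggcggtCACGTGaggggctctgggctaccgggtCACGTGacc
The other four belong to members that hold TCACGTGA and did not pass.
GAA, chr17:80101475-80101540, plus strand: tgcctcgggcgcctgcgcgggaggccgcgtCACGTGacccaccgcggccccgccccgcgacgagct
LAMP1, chr13:113297181-113297246, plus strand: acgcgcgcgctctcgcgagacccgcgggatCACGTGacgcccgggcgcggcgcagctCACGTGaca
CLN3, chr16:28492040-28492105, minus strand: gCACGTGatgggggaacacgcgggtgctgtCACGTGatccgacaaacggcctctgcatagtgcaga
ATP6V0D1, chr16:67481181-67481246, minus strand: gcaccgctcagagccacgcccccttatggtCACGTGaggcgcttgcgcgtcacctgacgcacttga
Of the 5 called genes with a promoter, CTSD alone held CACGTG, and none held TCACGTGA. Among the 10 genes past the adjusted p, 4 held CACGTG, as did 6 of the other 19. A match says only that these letters occur in the window.

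Among the 12 proteases, 2 were called at 24 h and 4 passed the adjusted p. CTSD, the aspartic protease cathepsin D, measured by the cluster TC1100013129.hg.1, had log2 values of 14.82, 14.75, 14.79 and 14.61 in the Ti-TMS-PEI arrays A to D, against 13.73, 13.78 and 13.73 in the Ti-Ref arrays A to C. The groups were clearly apart, with little spread on either surface. CTSD was 1.99-fold higher (log2 fold change 0.996, SE 0.09, adjusted p = 0.000974, limma), and averaged 14.74 ± 0.09 on Ti-TMS-PEI, against 13.75 ± 0.03 on Ti-Ref (SD, n = 4 and 3).

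TPP1 removes tripeptides from the ends of proteins and is mutated in a childhood neuronal storage disease. TPP1 (TC1100009981.hg.1) had values of 10.92, 10.71, 10.68 and 10.62 on Ti-TMS-PEI, against 10.10, 10.19 and 9.96 on Ti-Ref. Array A was highest on Ti-TMS-PEI, and the lowest coated array stood above the highest Ti-Ref array. TPP1 was 1.57-fold higher (log2 fold change 0.65, SE 0.11, adjusted p = 0.00928, limma).

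Cathepsin A, encoded by CTSA, trims peptides and shields other lysosomal enzymes from breakdown. CTSA had values of 14.54, 14.53, 14.25 and 14.53 on Ti-TMS-PEI, against 13.99, 13.92 and 14.07 on Ti-Ref. Array C was the low one on Ti-TMS-PEI and still lay above Ti-Ref (log2 fold change 0.47, adjusted p = 0.0293, limma). CTSO, a cysteine cathepsin, had values of 6.66, 6.36, 6.42 and 6.45 on Ti-TMS-PEI, against 5.93, 6.01 and 6.0 on Ti-Ref, with no overlap (log2 fold change 0.49, adjusted p = 0.0207). The remaining 8 proteases did not pass, although the mean of each was higher on Ti-TMS-PEI. Their log2 fold changes were 0.52 for CTSF, 0.24 for CTSL, 0.22 for CTSH, 0.17 for CTSZ, 0.14 for LGMN (legumain), 0.14 for CTSK, 0.13 for CTSB and 0.11 for CTSS.

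Among the 13 glycosidases and sulfatases measured, which take apart sugar chains of glycoproteins, glycolipids and glycosaminoglycans, 1 was called at 24 h and 5 passed the adjusted p. MANBA, the beta-mannosidase (TC0400011464.hg.1), had values of 6.43, 6.68, 6.42 and 6.82 on Ti-TMS-PEI, against 5.79, 5.84 and 6.29 on Ti-Ref. Ti-Ref array C was well above the other Ti-Ref arrays and not far below the lowest coated array. MANBA was 1.53-fold higher (log2 fold change 0.61, SE 0.16, adjusted p = 0.0419, limma). It was called in 1 of 7 fits that left out 1 array, that without Ti-Ref array C.

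HEXA, a subunit of beta-hexosaminidase, had values of 12.70, 12.66, 12.52 and 12.56 on Ti-TMS-PEI, against 12.04, 12.12 and 12.02 on Ti-Ref. The groups were apart, and the change stayed just under the fold threshold (1.46-fold, log2 fold change 0.55, SE 0.09, adjusted p = 0.00953, limma). GLA, the alpha-galactosidase that clears globotriaosylceramide, had 9.35, 9.69, 9.81 and 9.84 on Ti-TMS-PEI, against 9.17, 9.15 and 9.21 on Ti-Ref (log2 fold change 0.50, adjusted p = 0.0471). The coated array A lay closest to Ti-Ref. IDS, an iduronate sulfatase, had 10.23, 10.24, 10.01 and 10.05 on Ti-TMS-PEI, against 9.71, 9.61 and 9.60 on Ti-Ref (log2 fold change 0.49, adjusted p = 0.0196). The sulfatase ARSB had 10.38, 10.48, 10.54 and 10.30 on Ti-TMS-PEI, against 10.07, 9.99 and 10.09 on Ti-Ref (log2 fold change 0.38, adjusted p = 0.0468). Both sulfatases had all coated arrays above all Ti-Ref arrays. Outside the threshold were ARSA at 0.48, FUCA1 at 0.41, IDUA at 0.36, MAN2B1 at 0.35, SGSH at 0.30, NAGLU at 0.29, GAA at 0.12 and GUSB at -0.04 (log2 fold changes).

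Lipid hydrolases and their cofactors had the highest median among the hydrolases at 24 h, 0.56 over 6 genes, of which 3 were called and 4 passed the adjusted p. SMPD1, acid sphingomyelinase (TC1100006726.hg.1), had values of 10.13, 10.62, 10.37 and 10.19 on Ti-TMS-PEI, against 9.59, 9.69 and 9.64 on Ti-Ref. All coated arrays were above Ti-Ref, with array B the highest (1.61-fold, log2 fold change 0.69, SE 0.13, adjusted p = 0.0137, limma). Without Ti-Ref array A the adjusted p was 0.057.

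LIPA, the acid lipase that frees cholesterol from lipoprotein esters (TC1000012577.hg.1), had values of 11.30, 11.25, 10.92 and 10.92 on Ti-TMS-PEI, against 10.51, 10.27 and 10.52 on Ti-Ref. Coated arrays A and B stood above C and D, and all stood above Ti-Ref (1.58-fold, log2 fold change 0.66, SE 0.13, adjusted p = 0.0179, limma). LIPA lost its call without Ti-Ref array A, Ti-Ref array B or Ti-TMS-PEI array B.

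PSAP encodes prosaposin, which is cut into the saposins that present sphingolipids to their hydrolases. PSAP (TC1000010961.hg.1) had values of 14.85, 14.58, 14.28 and 14.29 on Ti-TMS-PEI, against 13.78, 13.65 and 13.62 on Ti-Ref. Array A was the highest, and the spread on Ti-TMS-PEI was larger than on Ti-Ref (14.50 ± 0.27 and 13.68 ± 0.09, SD). PSAP was 1.76-fold higher (log2 fold change 0.82, SE 0.15, adjusted p = 0.0122, limma). ASAH1, acid ceramidase, had values of 11.56, 11.54, 11.62 and 11.60 on Ti-TMS-PEI, against 11.09, 11.08 and 11.19 on Ti-Ref, with no overlap and little spread (log2 fold change 0.46, adjusted p = 0.0152). The log2 fold changes of PPT1, which removes palmitate from proteins, and of GM2A, a cofactor of hexosaminidase, were -0.10 and 0.35, and neither passed.

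Each of the 7 membrane proteins averaged higher on the coating at 24 h, 1 was called and 3 passed the adjusted p. NPC1 exports cholesterol from the lysosome (TC1800008285.hg.1). It had values of 11.13, 11.07, 10.91 and 11.25 on Ti-TMS-PEI, against 10.22, 10.10 and 10.27 on Ti-Ref. The groups were far apart relative to their spread, and NPC1 was 1.86-fold higher (log2 fold change 0.89, SE 0.11, adjusted p = 0.00268, limma). LAMP2, a heavily glycosylated protein of the lysosomal wall with a role in autophagy, had 13.40, 13.61, 13.23 and 13.35 on Ti-TMS-PEI, against 13.01, 12.88 and 12.99 on Ti-Ref (log2 fold change 0.44, adjusted p = 0.0436). MCOLN1, a calcium-releasing channel, had 13.43, 13.40, 13.50 and 13.42 on Ti-TMS-PEI, against 13.08, 12.99 and 13.10 on Ti-Ref (log2 fold change 0.38, adjusted p = 0.0308). Both had no overlap between the surfaces. LAMP1, the close relative of LAMP2, did not pass, with 12.64, 12.72, 12.56 and 12.59 on Ti-TMS-PEI, against 12.53, 12.35 and 12.48 on Ti-Ref (log2 fold change 0.17, adjusted p = 0.312). The remaining log2 fold changes were 0.34 for CD63, a tetraspanin, 0.33 for SCARB2, the receptor that carries glucocerebrosidase to the lysosome, and 0.28 for CLN3.

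All 5 proton pump components averaged higher on the coating at 24 h, and 1 was called. ATP6V1A, the catalytic subunit (TC0300008369.hg.1), had values of 12.25, 12.13, 11.96 and 12.10 on Ti-TMS-PEI, against 11.40, 11.14 and 11.30 on Ti-Ref. No Ti-Ref array came near the coated arrays, and ATP6V1A was 1.78-fold higher (log2 fold change 0.83, SE 0.11, adjusted p = 0.00362, limma). The other log2 fold changes were 0.42 for the accessory subunit ATP6AP1 (adjusted p = 0.0544), 0.38 for ATP6V1H (adjusted p = 0.0695), 0.32 for ATP6V0D1 and 0.25 for ATP6V0E1. All 5 were higher at an unadjusted p under 0.05.

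TFEB and TFE3 did not pass the test at either time. TFE3 had values of 9.59, 9.39, 9.57 and 9.63 on Ti-TMS-PEI, against 9.41, 9.61 and 9.58 on Ti-Ref, with the groups overlapping (log2 fold change 0.01, SE 0.10, adjusted p = 0.966, limma). Its sign turned with the processing, to -0.05 when each array was centred on its median. TFEB had values of 2.84, 3.12, 2.92 and 2.82 on Ti-TMS-PEI, against 2.88, 2.75 and 2.81 on Ti-Ref (log2 fold change 0.11, adjusted p = 0.584). Only 1.27% of clusters at 4 h and 0.98% at 24 h were dimmer than TFEB. Its values lay near the floor of the array, which limits what can be said of it. Transcript levels do not measure where the proteins were in the cell.

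**Figure D3:**
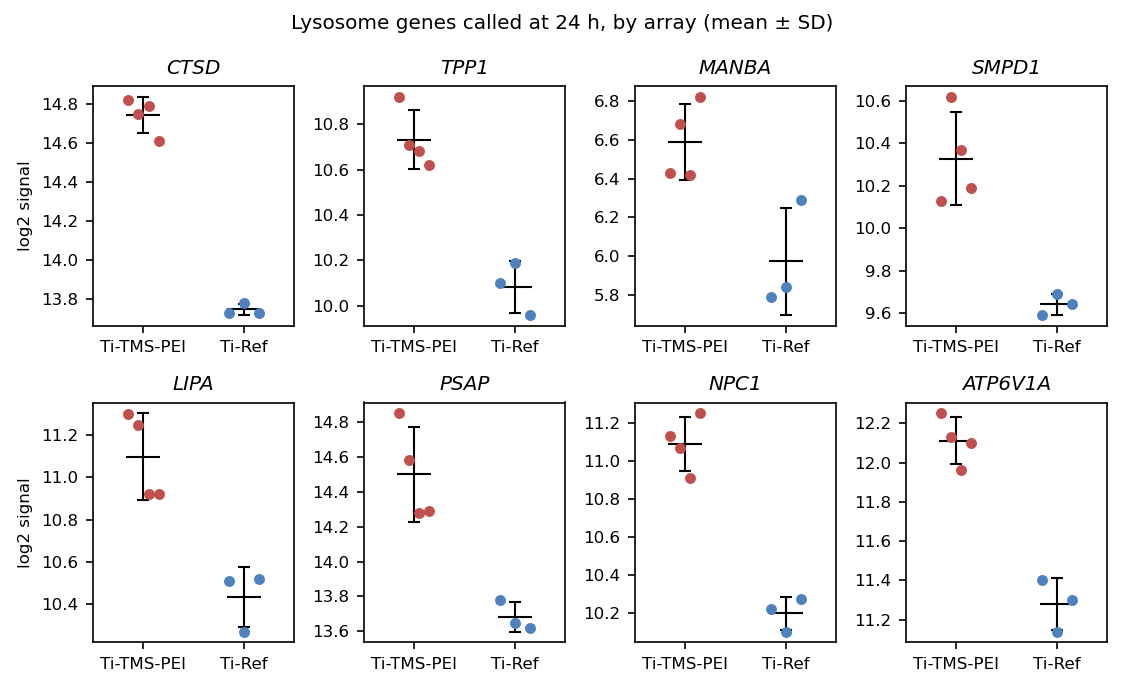
Log2 values of the 8 genes called at 24 h in each array, Ti-TMS-PEI left of Ti-Ref, with 1 point per array and bars for the mean ± SD. In each gene all 4 Ti-TMS-PEI arrays lay above all 3 Ti-Ref arrays.

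At 4 h 0 of 45 genes were called, when 0.0326% of all clusters were called higher and 0.00932% lower. At an unadjusted p under 0.05, 4 genes were higher (CTSH, CTSA, GAA and CLN3) and 0 lower, against 4.4% and 5.06% of all clusters. The median log2 fold change was 0.03, with a range of -0.29 to 0.72, beside -0.0075 over all clusters. The mean was higher on Ti-TMS-PEI in 27 of 45 genes, as in 48.3% of all clusters, and in 3 genes the arrays did not overlap, all higher, against 2.98% of all clusters higher and 2.79% lower. By fold and unadjusted p CTSH alone passed, as did 0.536% of all clusters in that direction.

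CTSH, cathepsin H, an aminopeptidase, had values of 4.64, 5.35, 4.92 and 4.72 on Ti-TMS-PEI at 4 h, against 3.85, 4.58, 3.97 and 4.35 on Ti-Ref. The groups did not overlap, although Ti-Ref array B came near the lowest coated array (log2 fold change 0.72, adjusted p = 0.324, limma). CTSA had values of 13.41, 13.70, 13.61 and 13.79 on Ti-TMS-PEI, against 13.38, 13.34, 13.28 and 13.29 on Ti-Ref (log2 fold change 0.30, adjusted p = 0.427). CLN3 had values of 8.25, 8.42, 8.25 and 8.76 on Ti-TMS-PEI, against 8.09, 8.03, 8.14 and 8.15 on Ti-Ref (log2 fold change 0.32, adjusted p = 0.487). These are the 3 genes without overlap. GAA, the acid glucosidase that degrades glycogen, gave 0.36 as log2 fold change (adjusted p = 0.401) and IDUA, the iduronidase, 0.23 (adjusted p = 0.643). Among the genes with the smallest p in the other roles, the log2 fold changes were 0.18 for PPT1 and 0.19 for LIPA, -0.20 for MCOLN1, 0.18 for ATP6AP1 and -0.10 for ATP6V1A, and 0.17 for TFE3 and -0.09 for TFEB.

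Of the 8 genes called at 24 h, none passed at 4 h, where CTSD differed by 0.21 (adjusted p = 0.536), LIPA by 0.19, MANBA by 0.01, SMPD1 by -0.07, NPC1 by -0.08, ATP6V1A by -0.10, PSAP by -0.11 and TPP1 by -0.29. The test of the difference itself (the effect of the coating at 24 h minus that at 4 h, over all 15 arrays, at an adjusted p under 0.05 and over 1.5-fold) called 7 of 45 genes, all larger at 24 h, against 2.6% of all clusters called in that direction and 2.19% in the other. The times were treated as normalized separately, so a difference in scale between them cannot be told apart from a difference in effect. The largest difference was that of NPC1, at 0.98 on the log2 scale (SE 0.15, adjusted p = 0.00155, limma). TPP1 followed at 0.94 (adjusted p = 0.0236), then ATP6V1A at 0.93 (adjusted p = 0.00158), PSAP at 0.93 (adjusted p = 0.00558), CTSD at 0.78 (adjusted p = 0.00282), SMPD1 at 0.76 (adjusted p = 0.0155) and MCOLN1 at 0.59 (adjusted p = 0.0256). ASAH1, at 0.56 (adjusted p = 0.0392), passed only the adjusted p, so that 8 genes passed it, against 2.78% of all clusters in that direction and 2.42% in the other. The calls of MANBA and LIPA at 24 h were not shown to differ from 4 h (adjusted p = 0.0662 and 0.19).

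TPP1 and MCOLN1 were the least firm of these differences. TPP1 was not called in 3 of 15 fits that left out 1 array (Ti-Ref arrays A and C and Ti-TMS-PEI array A of 24 h), and MCOLN1 in 7 of 15.

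**Figure D4:**
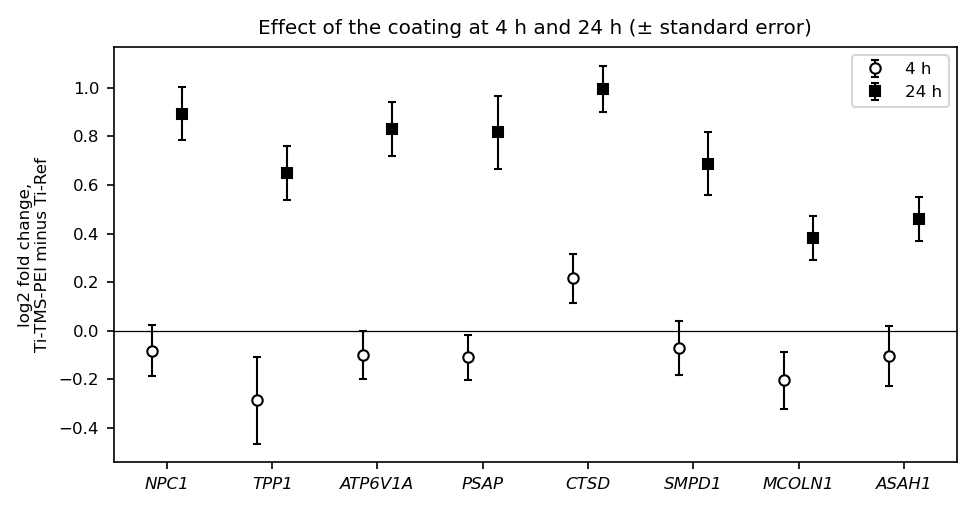
Log2 fold change (Ti-TMS-PEI minus Ti-Ref, ± standard error) at 4 h (open circles) and 24 h (filled squares) of the 8 genes whose effect differed between times at an adjusted p under 0.05. They lie between -0.29 and 0.21 at 4 h and between 0.38 and 0.996 at 24 h.

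Other genes of the pathway were taken from lists by function. The shares below stand beside 3.46% of all clusters called higher and 2.69% called lower at 24 h, and the fits of these lists without an array or with another scaling were chosen after seeing the data. Among 35 further membrane proteins and transporters of 37 listed, 7 were called higher (20%) and 1 lower (2.86%, near the share of all clusters), with a median log2 fold change of 0.30. SLC17A5, the sialic acid exporter, had values of 8.93, 9.56, 8.53 and 8.98 on Ti-TMS-PEI, against 7.31, 7.17 and 7.33 on Ti-Ref. All coated arrays were above Ti-Ref, though array B was higher than the rest (3.32-fold, adjusted p = 0.00244, limma). GPNMB, a lysosome-associated glycoprotein, had values of 14.98, 14.88, 14.69 and 14.85 on Ti-TMS-PEI, against 13.49, 13.41 and 13.72 on Ti-Ref, also apart (log2 fold change 1.31, adjusted p = 0.000741). CD68 was higher by 1.22 on the log2 scale (adjusted p = 0.00173) and TMEM192 by 0.63 (adjusted p = 0.00909), a call lost with centring of the arrays and without Ti-TMS-PEI array D, and CLN6, a protein of the endoplasmic reticulum, fell by 0.64. Without Ti-Ref array B the count higher in this list was 4, and without Ti-Ref array A or B or Ti-TMS-PEI array A CLN6 was not called.

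Among 27 further hydrolases of 36 listed, 4 were called higher (14.8%) and 2 lower (7.41%), with a median of 0.30. Those higher were led by DNASE2, which digests DNA (log2 fold change 0.92, adjusted p = 0.0027), PLBD2 (0.82, adjusted p = 0.0032) and the phospholipase family member PLD3 (0.96, adjusted p = 0.0102), while GGH, which trims folate polyglutamates, fell by 0.68 (adjusted p = 0.0102) and CTSC, cathepsin C, a dipeptidyl peptidase, by 0.87 (adjusted p = 0.013). The call of CTSC was lost without Ti-Ref array B, which left 1 lower. Of 17 further proton pump subunits of 20 listed, 0 were called in either direction, and the median was 0.23. At an unadjusted p under 0.05, 6 were higher and 2 lower, against 12.5% and 11.8% of all clusters. The count lower at the unadjusted p was near that share. By the adjusted p alone 0 were higher and 2 lower, against 5.16% and 4.26% of all clusters. The subunits ATP6V1G3 and ATP6V0A2 had log2 fold changes of -0.51 (adjusted p = 0.0387) and -0.50 (adjusted p = 0.0407). Of 29 sorting receptors and adaptors of 31 listed, 3 were called higher (10.3%: GRN, GGA2 and LRP1) and 0 lower, with a median of 0.17. GRN, progranulin, stood in this list although it is itself no sorting receptor or adaptor, and was higher by 0.69 (adjusted p = 0.00608, limma). LRP1, an endocytic receptor, was higher by 0.94 (adjusted p = 0.0159), and was lost without Ti-Ref array B or C. Without Ti-Ref array C 1 of this list, GRN, was called. GGA2 sat at the threshold with 0.58 and was called in 3 of 7 fits that left out 1 array.

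Of 41 autophagy genes of 44 listed, 5 were called higher (12.2%) and 1 lower (2.44%, near the share of all clusters) at 24 h, with a median of 0.23. GABARAPL1, which is coupled to lipid on autophagosome membranes, had values of 11.28, 11.65, 10.89 and 10.74 on Ti-TMS-PEI, against 9.43, 9.37 and 9.10 on Ti-Ref. The coated arrays lay well above Ti-Ref and spread more (3.58-fold, adjusted p = 0.00203, limma). The cargo receptor SQSTM1 (log2 fold change 1.04, adjusted p = 0.00201), the initiating kinase ULK1 (1.05, adjusted p = 0.00324) and the phosphoinositide-binding WIPI1 (0.96, adjusted p = 0.00173) were higher, and EPG5 fell by 1.12, a call lost without Ti-Ref array A or C or Ti-TMS-PEI array B. Among 23 damage-response genes of 25 listed, 3 were called higher (13%) and 0 lower (median 0.20): the galectins LGALS8 (0.86, adjusted p = 0.00262) and LGALS3 (0.91, adjusted p = 0.0114), which bind sugars exposed on broken lysosomes, and UBXN6 (0.66, adjusted p = 0.0217), which was called in 3 of 7 fits that left out 1 array. Of 26 nutrient-sensing genes of 27 listed, 1 was called higher (3.85%), near the share of all clusters: the arginine sensor CASTOR1 (0.64, adjusted p = 0.0134), and it was lost with centring of the arrays or a second quantile normalization, and without Ti-Ref array C or Ti-TMS-PEI array A. Of 13 inhibitors of cathepsins 0 were called. SERPINB1 and CSTB had log2 fold changes of 0.53 (adjusted p = 0.0342) and 0.26 (adjusted p = 0.107). At 4 h 0 genes of these 8 lists were called.

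**Figure D5:**
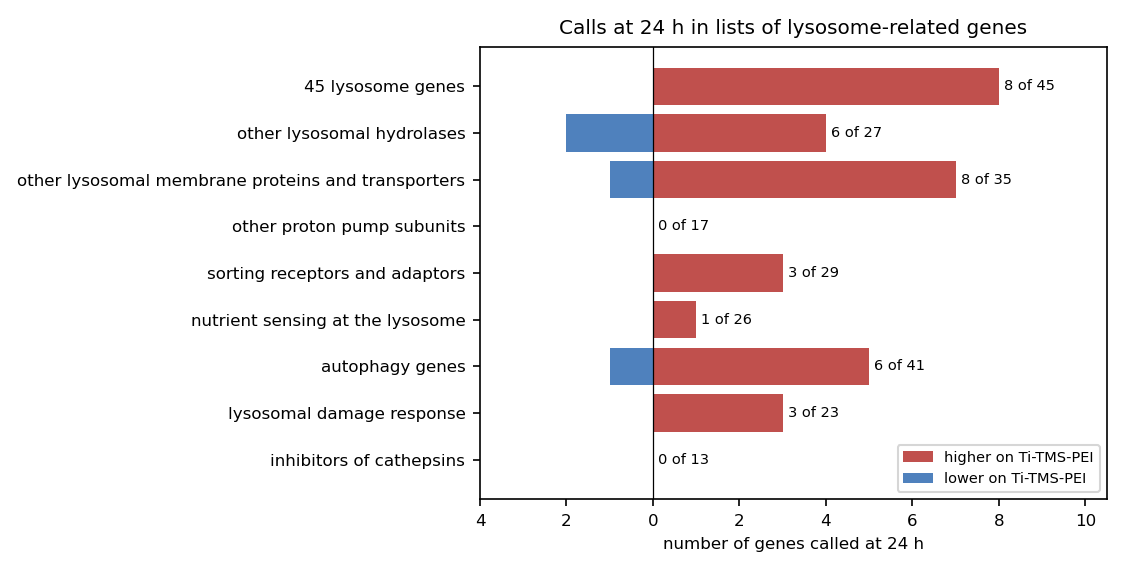
Number of genes called at 24 h in each list, higher on Ti-TMS-PEI to the right and lower to the left, with the calls of both directions and the genes measured beside each bar. The 45 lysosome genes held 8 calls higher and 0 lower, and the other pump subunits and the inhibitors of cathepsins held 0.

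Macrophages and osteoclasts are rich in lysosomes, and their 13 markers were all measured. None was called at 24 h, the median log2 fold change was -0.05, and the mean of the list lay between 4.55 and 4.84 on Ti-TMS-PEI, against between 4.69 and 4.78 on Ti-Ref, where the ranges overlap. PTPRC, which marks white blood cells, had 5.65, 5.46, 5.19 and 5.07 on Ti-TMS-PEI, against 5.72, 6.0 and 6.06 on Ti-Ref (log2 fold change -0.58, adjusted p = 0.0508). CD68, much used as a macrophage marker, and GPNMB, which macrophages and osteoclasts also express, stood in the list of membrane proteins and were called higher there (log2 fold changes 1.22 and 1.31). CD68 had values of 11.80, 12.04, 12.05 and 11.77 on Ti-TMS-PEI, against 10.46, 10.76 and 10.86 on Ti-Ref, with no overlap. The 8 osteoblast and 7 blood markers measured held 0 calls. Of the 6 epithelial and 5 endothelial markers 1 each was called higher (16.7% and 20%), against 3.46% of all clusters. These were KRT19 (log2 fold change 0.75, adjusted p = 0.0178, limma) and CDH5 (0.77, adjusted p = 0.0249). The mean of the endothelial list lay between 5.15 and 5.47 on Ti-TMS-PEI, against between 5.03 and 5.13 on Ti-Ref, and that of the epithelial list between 4.47 and 4.62 on Ti-TMS-PEI, against between 4.41 and 4.58 on Ti-Ref. Array medians at 24 h lay between 6.705 and 6.79, above the means of both lists. The part of these markers in the results was not tested.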

How the data were processed

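Total RNA of MG-63 cells was labelled and hybridised to Clariom S arrays. The deposited values are log2 intensities that the authors made with the Transcriptome Analysis Console, by SST-RMA (background adjustment, quantile normalization and log2 transformation). The array medians of the 4 h and the 24 h arrays differed, so the times were treated as normalized separately. Starting from these log2 values, linear models were fitted with limma 3.58.1 in R 4.3.3 (lmFit and eBayes) for each time, with Benjamini-Hochberg adjustment over 21448 transcript clusters. The fold and p thresholds (1.5 and 0.05) follow the study's methods. The test between times used all 15 arrays. No transcript cluster was filtered out. The number of arrays limits the precision. No pair of arrays was a duplicate (at most 2.67% of values identical). The fit was tested on simulated data.

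The genes, lists and tests were chosen with earlier results of these data known. Values in every array were given for genes called and for those past the adjusted p at a smaller fold. Where a role held no call, the pair of genes with the smallest p was given, and of each other list up to 4 called genes. Genes named beyond this (LAMP1, CTSC, CLN6, EPG5, the marker genes) were chosen after their values were seen. Promoter sequences were taken from RefSeq by symbol. Alternatives to the scaling, the variance model, the filter and each array are described in the closing section.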

Additional observations from a re-analysis of the deposited data

Results flagged for a closer look

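A single array stood apart from the others of its group in 6 of 135 groups of 4 arrays of a gene, where 1 in 20, or 6.75, would be flagged by chance. The Ti-Ref groups of 24 h, with 3 arrays, were not screened. At 24 h, CTSA was 14.25 in Ti-TMS-PEI array C and CLN3 was 9.91 in Ti-TMS-PEI array D, both below the other coated arrays. At 4 h, MANBA was 5.47 in Ti-Ref array A, GM2A was 5.27 and LAMP1 was 12.06 in Ti-Ref array C, and TFE3 was 7.71 in Ti-Ref array D.

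The effect of the coating differed between 24 h and 4 h, by the test of the difference itself (limma, adjusted over all clusters), in 8 genes. The differences on the log2 scale, 24 h minus 4 h, were 0.98 for NPC1, 0.94 for TPP1, 0.93 for ATP6V1A, 0.93 for PSAP, 0.78 for CTSD, 0.76 for SMPD1, 0.59 for MCOLN1 and 0.56 for ASAH1. ASAH1 passed the adjusted p but lay under the fold threshold.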

How the results depend on the processing

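At 24 h the number of called lysosome genes was 8, and 5 to 8 when each array was left out in turn, lowest without Ti-Ref array A. It was 7 with a second quantile normalization or with arrays centred on their medians, both without MANBA. By the adjusted p alone it was 17, and 6 to 14 when each array was left out (an alternative chosen after seeing the data). It was 12 with centring, 17 with array weights or a second quantile normalization, 18 in 1 fit over all 15 arrays, 20 without the dimmest 25% of clusters and 22 with trended and robust variance, and under the last 3 settings the same 8 genes were called. The share of all clusters past the adjusted p was not computed for these alternatives. Centring moved the median log2 fold change at 24 h to 0.30 for all the lysosome genes and to 0.31 for hydrolases. Leaving out arrays gave medians of 0.35 to 0.44 for hydrolases at 24 h and of -0.0408 to 0.102 for the proton pump at 4 h. At 4 h, fold and unadjusted p called 1 gene, CTSH. The number of genes that differed between times was 5 to 9.

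The sign of TFE3 at 24 h turned to -0.0167 with the replicate block, to -0.00190 with array weights and to -0.0492 with centring, and ran between -0.05 and 0.0633 when arrays were left out. MANBA at 4 h ran between -0.0142 and 0.0525. TFEB had no value once the dimmest 25% of clusters was left out. Each gene had 1 cluster, so averaging clusters changed no gene's values.

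The residuals of same-letter arrays correlated between -0.0312 and 0.0462 at 4 h and between -0.0711 and -0.0605 at 24 h. They showed no shared deviation by letter, which does not settle whether the arrays were paired. With the replicate block 6 genes were called at 24 h, without MANBA and LIPA, and 6 passed the adjusted p alone. No share of all clusters was computed for that fit. Between times 6 were called, without MCOLN1. The median log2 fold change of hydrolases at 24 h with the replicate block was 0.44.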
